A study of Homo sapiens with 6 samples.

Results

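The translation initiation factor genes are the protein-coding genes whose symbol begins with EIF and a digit, which brings in the EIF2AK kinases that act on eIF2 and the EIF4EBP genes whose products hold back eIF4E. In the GENCODE annotation 56 such genes were found, 1 on chromosome Y was left out, and the other 55 are described here, out of 37192 genes to which a counted transcript could be matched. They were examined in untreated K562 cells, a human chronic myelogenous leukemia line, grown in RPMI-1640 medium with 10% fetal bovine serum and 1% penicillin/streptomycin. There were 4 RNA-seq libraries of total RNA after rRNA depletion and 2 PRO-seq libraries, which capture nascent RNA at engaged polymerases. The study's methods place all of them in cells from the same flask, so the spread between libraries, and every p-value built on it, may be technical and does not cover other cultures or other cell lines. There are no treated cells, and the comparison is between the steady-state RNA and the nascent RNA of each gene.

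Initiation begins when eIF2, carrying GTP and the initiator methionyl-tRNA, joins the 40S ribosomal subunit together with eIF1, eIF1A, eIF3 and eIF5, and when eIF4E, eIF4G and eIF4A bring the complex to a capped mRNA. The start codon is then found by scanning, eIF2 releases its GDP and is recharged by eIF2B, and eIF5B joins the 60S subunit. The pathway is slowed by kinases that phosphorylate eIF2 and by proteins that occupy the eIF4G-binding face of eIF4E.

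Counts on transcripts ranged from 5732780 to 9002746 in RNA-seq and were 6993816 and 7245632 in PRO-seq. RNA-seq replicates 1 and 3, and likewise replicates 2 and 4, lay closer to each other (chi-square per degree of freedom 1.12 for each pair) than the remaining pairs (1.74 to 2.11), but they differed by more than counting noise and were kept as 4 libraries. All 8 listed K562 markers had RNA-seq counts, with a summed level of 11250 to 12103 TPM (transcript counts per unit length, scaled to a fixed total in each library), and in PRO-seq 7 of the 8 had counts, with a summed level of 676 to 700 TPM and HBE1 at 0. Of the markers of other cells, 5 were matched. EPCAM held nearly all of their summed 118 to 124 TPM in RNA-seq, and the T-cell, B-cell, liver and collagen markers were each at 0.675 TPM or less. In bulk libraries of this kind, fewer expressing cells and less RNA per cell cannot be told apart.

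The study takes the ratio of steady-state to nascent RNA as a relative half-life. Its main estimates came from earlier PRO-seq and poly-A+ RNA-seq libraries. The authors found those less variable, and closer to published half-lives, than estimates from the libraries used here. Here the ratio was estimated with edgeR from the counts. The divisor was the exon length for RNA-seq and the span of the transcription unit minus 1000 bp for PRO-seq. The ratio has no unit of time and is given on the log2 scale with the median mRNA at 0. The paper states that PRO-seq measures how engaged polymerases occupy a gene, which reflects elongation rate as well as transcription rate. It judged the effect of elongation rate on its own estimates to be present but limited. Here that effect was not tested, and longer-lived or shorter-lived below refers to this ratio alone. TPM is scaled within each library, so equal TPM in the 2 assays does not mark the median mRNA. The mRNAs fitted had a median of 31.2 TPM in RNA-seq and 47.5 TPM in PRO-seq. EIF2AK4, with a mean of 26.1 TPM in both assays, lay at 0.64. Where RNA-seq and PRO-seq TPM of a gene are compared below, the log2 half-life gives its place against other mRNAs. Genes entered above 10 TPM of PRO-seq, and above 1 TPM of RNA-seq, both computed from counts summed over the libraries of the assay rather than as the mean of the libraries. Of the 55 genes, 47 passed and 8 did not (EIF2S3B, EIF3CL, EIF3E, EIF4A1, EIF4E1B, EIF4E3, EIF4EBP3 and EIF5AL1). The thresholds were set on both assays, so the counts below describe the 47 genes and not the whole family.

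Most initiation factor RNAs had longer relative half-lives than the median mRNA. At an edgeR quasi-likelihood, Benjamini-Hochberg adjusted p under 0.05, 33 of the 47 (70.2%) lay above it and 10 (21.3%) below, where 45.4% of all 8733 mRNAs were above and 44.9% below. Over all 10053 transcripts fitted, noncoding ones included, 40.0% were above and 50.4% below. With a difference of over 2-fold required, 20 of the initiation factor genes were above and 3 below (42.6% and 6.38%), against 24.3% and 23.2% of mRNAs and 21.3% and 29.8% of all transcripts. The median log2 half-life of the 47 genes was 0.67, with quartiles at -0.01 and 1.69, whereas the quartiles of all mRNAs were -1.06 and 1.08. EIF1AD, EIF1B, EIF2AK1 and EIF2D were not called on either side.

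**Figure D1:**
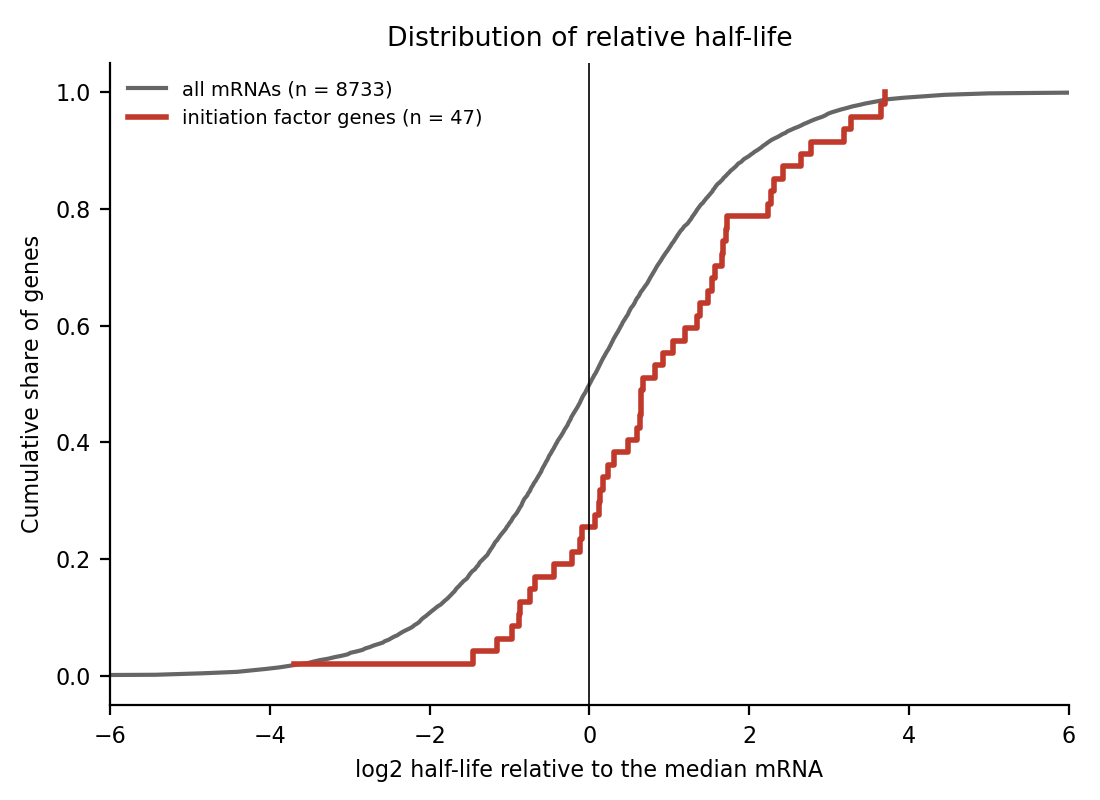
Cumulative share of genes (vertical axis) against log2 half-life relative to the median mRNA (horizontal axis) for the 47 initiation factor genes and all 8733 mRNAs fitted. The initiation factor curve lies to the right of the mRNA curve over most of its range, with medians of 0.67 and 0, and EIF1 is the leftmost member at -3.70.

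The 55 genes together held 1.35% ± 0.00515 (SD, n = 4) of RNA-seq TPM and 0.856% ± 0.00571 (SD, n = 2) of PRO-seq TPM. Across the 47 genes, RNA-seq TPM followed PRO-seq TPM with a Spearman's rho of 0.767, compared with 0.551 across all mRNAs fitted. These coefficients run across genes of the same libraries, which are not independent replicates, and are given as descriptions. The log2 half-life of the members had a rho of -0.453 with exon length and 0.418 with the density of splice junctions, next to -0.331 and 0.369 across mRNAs. With span, the length from the first to the last base of the transcription unit, it had -0.121 in the members and 0.0289 across mRNAs. With RNA-seq TPM the log2 half-life had a rho of 0.855 in the members and 0.792 across mRNAs, and with PRO-seq TPM 0.393 and -0.0126. The members fitted had median levels of 124 TPM in RNA-seq and 115 TPM in PRO-seq, against 31.2 and 47.5 TPM for mRNAs. No comparison with mRNAs of like level was made. Both levels enter the half-life itself, and exon length and span enter it as divisors.

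**Figure D2:**
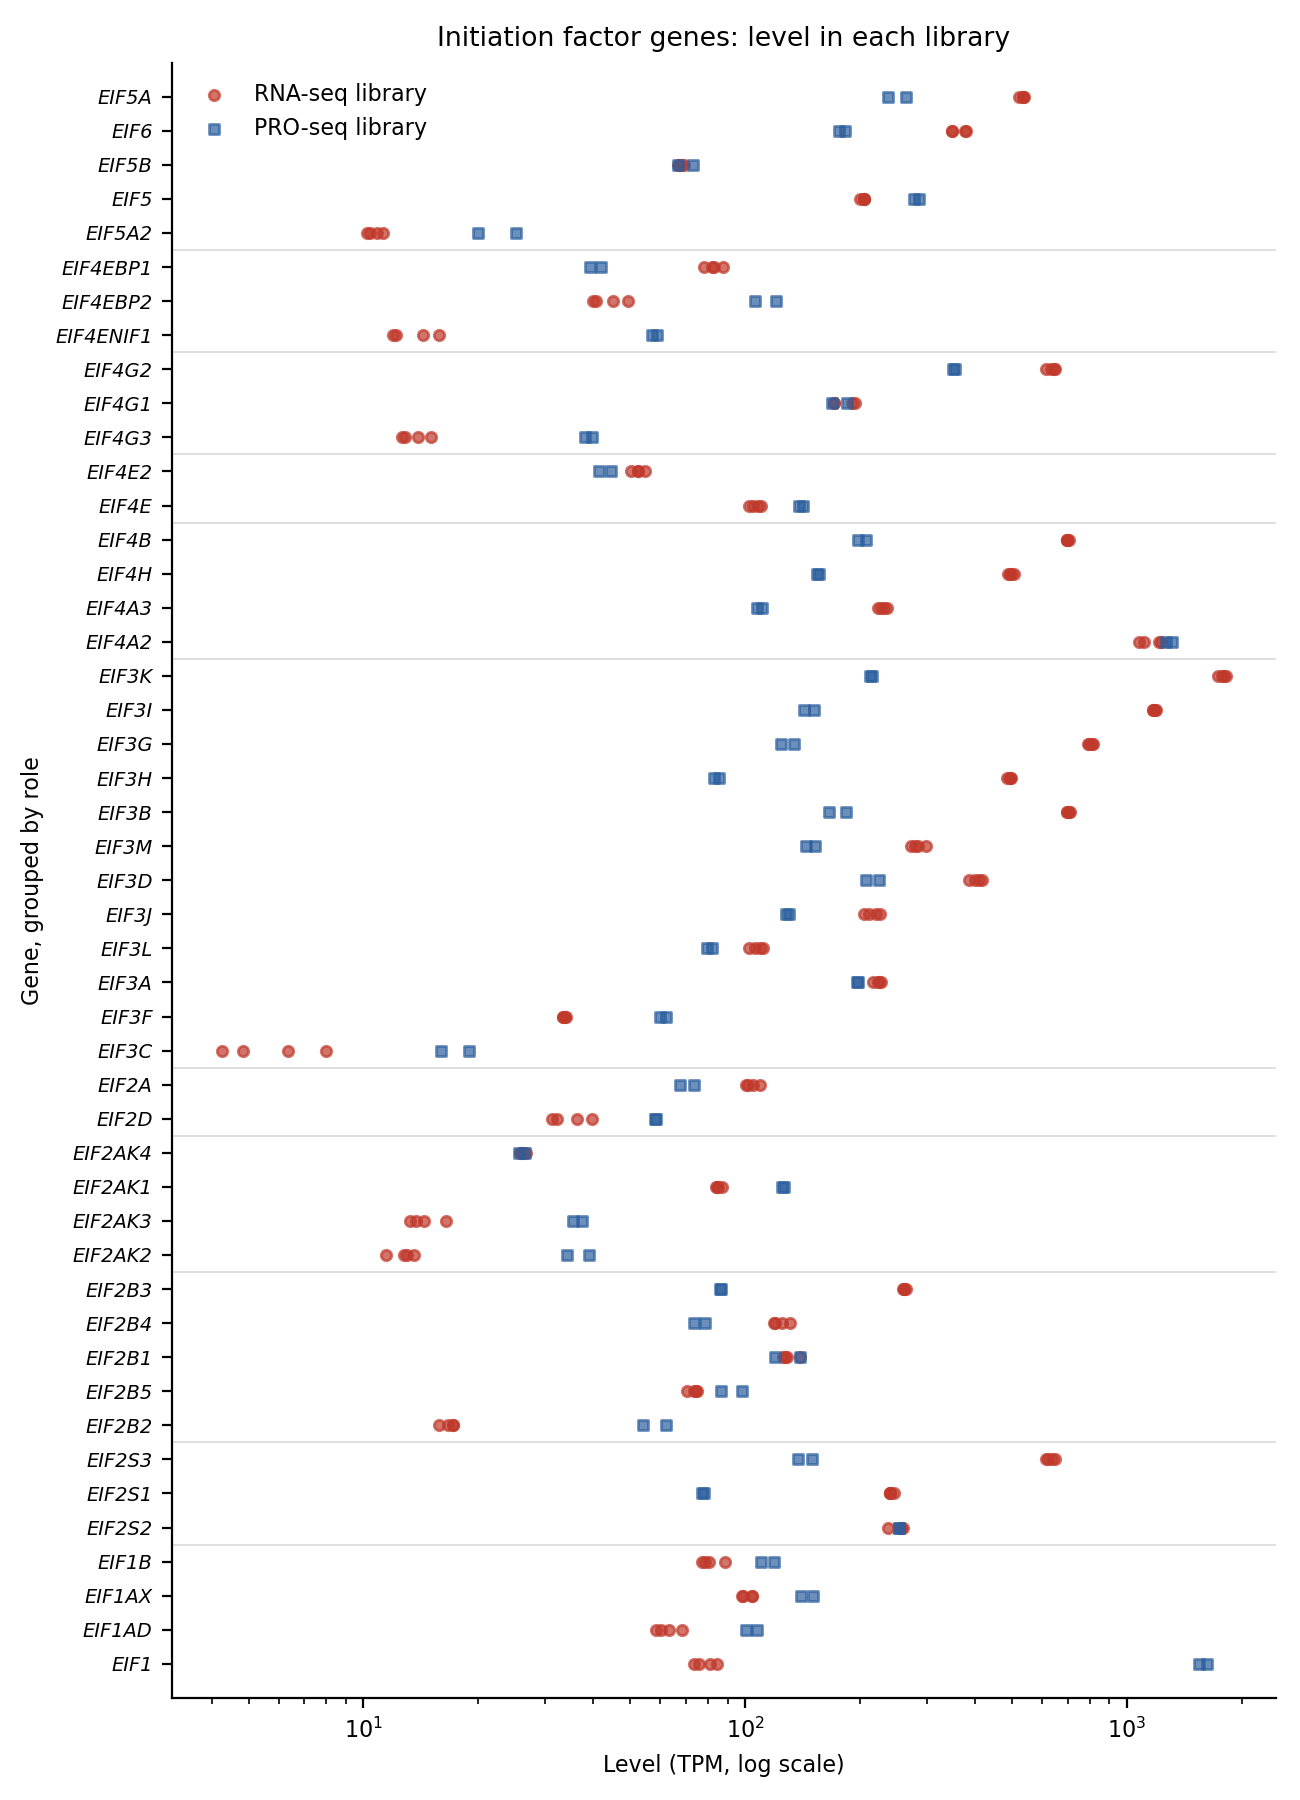
Level in TPM on a log axis for each of the 47 genes fitted, with a red circle for each of the 4 RNA-seq libraries and a blue square for each of the 2 PRO-seq libraries, and grey lines between role groups. EIF3B, EIF3G, EIF3H, EIF3I and EIF3K have RNA-seq points far to the right of their PRO-seq points, and EIF1 shows the reverse, with PRO-seq at 1549 and 1624 TPM and RNA-seq at 73.5 to 84.5 TPM.

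A stretch of pyrimidines at the very start of the transcript, the 5' terminal oligopyrimidine motif, is known from mRNAs of ribosomal proteins and elongation factors. It was looked for here as C at the annotated start base followed by 4 bases that are each C or T, on the gene's own strand alone, in RefSeq promoters on GRCh38.p14. The windows below hold 10 bases before the start and 20 from it, with the first 5 transcribed bases in capitals. They are shown because EIF3K and EIF2S3 are among the 5 longest-lived members and carry the run, as does EIF4B, while EIF3I, nearly as long-lived as EIF3K, and EIF1, the shortest-lived, do not. The choice is not a fair sample. EIF3G and EIF3H, also among the 5 longest-lived, had no RefSeq promoter. EIF3B (2.64), longer-lived than EIF4B (2.43), does not carry the run, and EIF2D (-0.11) and EIF3F (-0.22) do.
EIF3K: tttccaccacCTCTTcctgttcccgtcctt
EIF2S3: gatttccttcCTCTTttggcaacatggcgg
EIF4B: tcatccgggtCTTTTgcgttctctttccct
EIF3I: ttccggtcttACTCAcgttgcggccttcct
EIF1: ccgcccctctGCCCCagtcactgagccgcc

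These windows lie at chr19:38619178-38619207 (EIF3K), chrX:24054946-24054975 (EIF2S3), chr12:53006446-53006475 (EIF4B), chr1:32222397-32222426 (EIF3I) and chr17:41688875-41688904 (EIF1), all on the plus strand, and each spans the promoter's last bases and the beginning of the first exon. A RefSeq promoter was at hand for 46 members, 40 of them fitted. The run stood at the start of 9 of the 40 (22.5%): EIF2A, EIF2D, EIF2S3, EIF3D, EIF3F, EIF3K, EIF3M, EIF4A2 and EIF4B. It stood at 7.88% of 7231 fitted mRNAs with a promoter, at 43 of 61 cytosolic ribosomal protein genes (70.5%) and at 4.07% of all 35116 promoters. The members with the run had a median log2 half-life of 1.54, with 7 of 9 above the median mRNA, and the 31 without had 0.60, with 20 above. The ranges overlapped, from -0.22 to 3.70 with the run and from -3.70 to 3.64 without. Among the fitted mRNAs with a promoter the medians were 0.30 with the run and 0.00 without, and 306 of 570 with the run and 3014 of 6661 without were above the median mRNA. RefSeq's start need not be the start used in K562 cells or that of the counted transcript, and a match describes these letters alone.

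In the group of EIF1, EIF1B, EIF1AX and EIF1AD, EIF1 stood apart from the others. Its product keeps the scanning ribosome from stopping at a poor start codon. PRO-seq gave 1624 and 1549 TPM, the 23rd highest level among mRNAs, whereas the 4 RNA-seq libraries gave 81.2, 75.6, 84.5 and 73.5 TPM, rank 2216. Both PRO-seq values thus lay far above all RNA-seq values. The log2 half-life was -3.70 (SE 0.0588, edgeR adjusted p = 2.36e-30), or 0.0770 of the median mRNA, and 1.91% of mRNAs had a lower value. It ranged from -3.75 to -3.04 over the alternative settings. The EIF1 gene, at chr17:41688885-41692668 on GRCh38.p14, was counted over its canonical transcript of 2338 bases in 4 exons, no exon of another counted transcript overlapped it, and 2.47% of its windows of 75 bases, the RNA-seq read length, occurred at a second place in the genome.

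EIF1B, a close relative of EIF1, had 80.2, 78.7, 77.2 and 88.6 TPM in RNA-seq, in the same range as EIF1, but 110 and 119 TPM in PRO-seq. Its log2 half-life of 0.14 (SE 0.147) was not called (edgeR adjusted p = 0.378), but it was called above the median mRNA with 500 bp in place of 1000 bp removed for PRO-seq (0.45, edgeR adjusted p = 0.00439). EIF1AX, which encodes eIF1A, had 98.1, 104, 99.0 and 105 TPM in RNA-seq and 151 and 140 TPM in PRO-seq. Its value of 0.12 (SE 0.0556) was barely past the threshold (edgeR adjusted p = 0.0452). The call was lost without PRO-seq replicate 2 (0.05, edgeR adjusted p = 0.481), without RNA-seq replicate 2 (edgeR adjusted p = 0.0817), without RNA-seq replicate 4 (edgeR adjusted p = 0.0881) and with the replicate number as a block (edgeR adjusted p = 0.142). It was also lost with 500 bp removed (edgeR adjusted p = 0.0588), with RNA-seq replicates 1 and 3 summed and 2 and 4 summed (edgeR adjusted p = 0.0955), with stricter thresholds (edgeR adjusted p = 0.166) and in DESeq2 (adjusted p = 0.101). EIF1AD, an eIF1A domain gene, had 63.2, 58.5, 68.6 and 60.3 TPM in RNA-seq and 107 and 100 TPM in PRO-seq, with a value of -0.10 (SE 0.107, edgeR adjusted p = 0.388) whose sign depended on the setting. Of EIF1AX's windows, 42.7% occurred at a second place.

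The 3 subunit genes of eIF2 that could be fitted all lay above the median mRNA, and EIF2S1 and EIF2S3 did so by over 2-fold. EIF2S3, the gamma subunit that binds GTP and the initiator tRNA, had 621, 648, 614 and 637 TPM in RNA-seq and 150 and 137 TPM in PRO-seq, so that the lowest RNA-seq value exceeded the highest PRO-seq value. Its log2 half-life of 2.77 (SE 0.0445, edgeR adjusted p = 3.21e-30) was the fifth highest of the family. EIF2S1, the alpha subunit that the kinases phosphorylate, reached 2.28 from a PRO-seq mean of 77.5 TPM, and EIF2S2, the beta subunit, 0.63 from 254 TPM. The RNA-seq means of the subunits spanned 2.61-fold and their PRO-seq means 3.27-fold. A second place was found for 13.1% of the windows of EIF2S3 and 26.3% of those of EIF2S2.

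EIF2S3B, a copy of EIF2S3 on chromosome 12, was the clearest case of RNA-seq counts without nascent ones. It held 454, 518, 331 and 341 RNA-seq counts, or 54.5, 58.9, 59.2 and 53.1 TPM, but 2 and 1 counts in PRO-seq. The PRO-seq counts kept it from the fit. Of its windows 5.75% occurred at a second place, and 50.1% of the exons of its canonical transcript were covered by the transcript counted. The part of reads from EIF2S3 in its counts was not tested.

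The eIF2B genes encode the exchange factor that recharges eIF2 with GTP. Of the 5, EIF2B1, EIF2B3, EIF2B4 and EIF2B5 were above the median mRNA and EIF2B2 was below, with a median of 0.65. PRO-seq means spanned 2.23-fold, from 58.0 to 129 TPM, whereas RNA-seq means spanned 15.7-fold, from 16.7 to 262 TPM. The extremes were EIF2B3, the gamma subunit, at 2.24 (SE 0.0406), and EIF2B2, the beta subunit. EIF2B2 had 17.1, 15.8, 17.2 and 16.7 TPM in RNA-seq and 54.0 and 62.0 TPM in PRO-seq, with all RNA-seq values under both PRO-seq values. Its log2 half-life was -1.16 (SE 0.112, edgeR adjusted p = 6.84e-11), the third lowest of the family. Exons of counted transcripts on the other strand held 29.3% of its exon bases, and with the strand setting not given in the sources used here, their part in its counts was not tested. The call of EIF2B5 (0.30) was lost without PRO-seq replicate 2 (0.20, edgeR adjusted p = 0.0573). EIF2B5 was counted over a transcript annotated as a retained intron, with 4425 exon bases where its canonical transcript has 2562, and the part of this in its value was not tested.

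Of the 4 kinases of eIF2, EIF2AK4 was above the median mRNA, EIF2AK2 and EIF2AK3 were below, and EIF2AK1 was not called. EIF2AK1, the heme-regulated kinase of erythroid cells, had the highest level, with 83.9, 85.2, 84.6 and 87.0 TPM in RNA-seq and 125 and 127 TPM in PRO-seq, and its value was 0.08 (SE 0.0465, edgeR adjusted p = 0.125). EIF2AK2, the kinase PKR that senses double-stranded RNA, had 13.6, 13.0, 12.8 and 11.5 TPM in RNA-seq and 34.1 and 38.9 TPM in PRO-seq. It was the fifth lowest of the family at -0.88 (SE 0.0726, edgeR adjusted p = 1.96e-12). EIF2AK3, the kinase PERK of the endoplasmic reticulum, was close to EIF2AK2 in both assays, with 13.8, 16.4, 13.3 and 14.4 TPM and 37.5 and 35.5 TPM, and lay at -0.68. Its call was lost with at least 1 count in place of the TPM thresholds (-0.02, edgeR adjusted p = 0.791), a setting in which the values of all members rose. EIF2AK4, the kinase GCN2 that responds to amino acid shortage, had the lowest PRO-seq level, 26.5 and 25.6 TPM, but RNA-seq levels of 25.8, 26.2, 25.8 and 26.8 TPM, above those of EIF2AK2 and EIF2AK3 in every library, and a value of 0.64 (SE 0.0601).

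EIF2A and EIF2D encode factors that can deliver tRNA to the ribosome without eIF2. EIF2A lay at 1.20 (SE 0.0551) and was over 2-fold above the median mRNA, and EIF2D was not called at -0.11 (SE 0.102, edgeR adjusted p = 0.292). The transcript of EIF2D that was counted, annotated as a target of nonsense-mediated decay, covered 6.86% of the exons of its canonical transcript.

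eIF3, the multisubunit scaffold that binds the 40S subunit and the other factors, held the 4 longest relative half-lives of the family. Of its 14 genes 12 could be fitted, 10 of them above the median mRNA, 8 by over 2-fold (EIF3B, EIF3D, EIF3G, EIF3H, EIF3I, EIF3J, EIF3K and EIF3M), and EIF3C and EIF3F below, with a median of 1.55. EIF3K had 1819, 1798, 1779 and 1732 TPM in RNA-seq, the highest RNA level of the family, and 213 and 215 TPM in PRO-seq. Its log2 half-life was 3.70 (SE 0.0442, edgeR adjusted p = 2.42e-33), 13.0 times the median mRNA. EIF3I followed with 1169, 1173, 1196 and 1190 TPM in RNA-seq and 143 and 151 TPM in PRO-seq, at 3.64 (SE 0.0497). The 2 values differed by about the size of their SEs. For these genes each RNA-seq value exceeded each PRO-seq value several times over.

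EIF3G, whose product binds RNA and eIF4B, had 810, 815, 797 and 792 TPM in RNA-seq and 124 and 135 TPM in PRO-seq, at 3.27 (SE 0.0677). EIF3H had 494, 486, 495 and 498 TPM in RNA-seq and 85.3 and 83.1 TPM in PRO-seq, at 3.19 (SE 0.0399). These 2 differed from each other by little more than the larger SE. The edgeR adjusted p was 5.74e-32 for EIF3I, 1.64e-27 for EIF3G and 7.20e-33 for EIF3H. The counted transcript of EIF3H covered 31.1% of its canonical exons, against 87.2% for EIF3K, 99.6% for EIF3I and 100% for EIF3G.

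Subunits of eIF3 are assembled into a single complex, but their RNA-seq levels differed more than their PRO-seq levels. Leaving out the subunits whose counts were in doubt for read sharing or the transcript counted, 9 remained, and their PRO-seq means spanned 3.54-fold (61.1 to 216 TPM) and their RNA-seq means 53.0-fold (33.6 to 1782 TPM). EIF3F had the lowest mean of the 9 in each assay and so set the lower end of both spans. EIF3J came next, at 216 TPM in RNA-seq. It was next in PRO-seq too, at 129 TPM. No span or SD was computed without EIF3F. With all 12 fitted the spans were 12.4-fold and 305-fold. The SD of log2 level over the 9 was 0.56 in PRO-seq and 1.71 in RNA-seq, and over all mRNAs fitted 1.24 and 2.05. EIF3A, the largest subunit, and EIF3B had similar PRO-seq means of 197 and 175 TPM and RNA-seq means of 223 and 702 TPM. EIF3F, at -0.22 (SE 0.0604, edgeR adjusted p = 0.00111), was counted over a transcript of 7540 bases, the second longest exon length of the fitted members, and its sign turned under other settings.

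EIF3C and EIF3CL are near-identical copies on chromosome 16, and about as many of their windows were shared with a second place as were not. EIF3C had 6.33, 4.83, 7.96 and 4.27 TPM in RNA-seq and 16.0 and 19.0 TPM in PRO-seq, at -0.96 (SE 0.146, edgeR adjusted p = 4.83e-07). EIF3CL had 0.618, 0.836, 1.05 and 1.60 TPM in RNA-seq, from 7, 10, 8 and 14 counts, but 189 and 229 TPM in PRO-seq. It was not fitted, since its RNA-seq counts summed over the libraries gave 0.984 TPM. In PRO-seq EIF3CL thus stood at the level of the other subunits, and in RNA-seq both copies were the lowest of the complex that had counts. A second place was found for 52.3% of EIF3C's windows and 49.1% of EIF3CL's, so the value of EIF3C is uncertain. For EIF3E, the counted transcript of 715 bases shared no exon base with the canonical one, and held 0 counts in each RNA-seq library and 19 and 34 in PRO-seq. These counts do not speak to the level of the EIF3E mRNA.

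The helicase eIF4A unwinds the 5' end of mRNAs, with eIF4B and eIF4H as its partners. All 4 genes fitted were above the median mRNA (median 2.01), and EIF4A3, EIF4B and EIF4H by over 2-fold. EIF4A2 had the third highest RNA-seq level of the family, with 1079, 1217, 1112 and 1232 TPM, and a PRO-seq level of 1265 and 1315 TPM, the 32nd highest among mRNAs. It was counted over a transcript annotated as a target of nonsense-mediated decay, which covered 92.6% of its canonical exons. Its RNA-seq values lay under its PRO-seq values in all libraries, and its log2 half-life relative to the median mRNA was 0.48 (SE 0.045, edgeR adjusted p = 2.83e-11). EIF4A3, a core protein of the exon junction complex rather than a factor of scanning, had 223, 235, 232 and 227 TPM in RNA-seq and 108 and 111 TPM in PRO-seq, at 1.71 (SE 0.0584). EIF4B (2.43) and EIF4H (2.31) were above by over 2-fold, and 40.6% and 47.5% of their windows occurred at a second place.

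EIF4A1 was listed at 0 in each of the 6 libraries. All of its exon bases (100%) lie in exons of other counted transcripts on the same strand, the read-through gene SENP3-EIF4A1 among them, so its level cannot be read from these counts. EIF4A1 and EIF4A2 can therefore not be compared here.

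Of the genes of the cap-binding protein eIF4E and its relatives, EIF4E and EIF4E2 could be fitted and EIF4E1B and EIF4E3 had few counts. EIF4E had 102, 105, 108 and 110 TPM in RNA-seq and 142 and 138 TPM in PRO-seq, at 0.24 (SE 0.0475, edgeR adjusted p = 3.72e-05), with 50.2% of its windows at a second place. EIF4E2, which binds the cap more weakly and acts in repression, had 50.2, 54.6, 52.3 and 52.4 TPM in RNA-seq and 41.4 and 44.5 TPM in PRO-seq, at 0.92 (SE 0.0678, edgeR adjusted p = 1.19e-13). Both were above the median mRNA, and neither by over 2-fold. The counted transcript of EIF4E2 covered 72.5% of its canonical exons. EIF4E1B had 1 RNA-seq count in 1 library and 1 count in each PRO-seq library, and EIF4E3 had 15, 19, 18 and 18 RNA-seq counts (0.621, 0.746, 1.11 and 0.967 TPM) and 0 in both PRO-seq libraries. A counted transcript on the same strand overlaps 99.8% of the EIF4E3 span used for PRO-seq, and 59.0% of its canonical exons were counted, so its level cannot be read from these counts either.

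The eIF4G scaffolds, which tie eIF4E to eIF4A and eIF3, were ordered alike in both assays. EIF4G2, which lacks the eIF4E-binding part, was highest with 633, 616, 650 and 645 TPM in RNA-seq and 355 and 351 TPM in PRO-seq, at 1.49 (SE 0.0402). EIF4G1, the main scaffold, had 191, 171, 194 and 171 TPM in RNA-seq and 169 and 185 TPM in PRO-seq, at 0.67 (SE 0.0565). EIF4G3 had 15.0, 12.9, 13.9 and 12.6 TPM in RNA-seq and 38.0 and 39.6 TPM in PRO-seq, at -0.87 (SE 0.0572). The edgeR adjusted p-values were 1.51e-24, 3.03e-12 and 7.81e-15, and the 3 genes did not overlap in any library of either assay.

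Among the genes whose products restrain eIF4E, EIF4EBP1 and EIF4EBP2 lay on opposite sides of the median mRNA. EIF4EBP1 had 81.8, 87.5, 82.9 and 77.9 TPM in RNA-seq and 42.0 and 39.2 TPM in PRO-seq, at 1.67 (SE 0.0835, edgeR adjusted p = 1.01e-17). EIF4EBP2 had the higher PRO-seq level, 121 and 106 TPM, and the lower RNA-seq level, 45.1, 39.9, 49.3 and 40.7 TPM, at -0.74 (SE 0.0732, edgeR adjusted p = 1.06e-10). With at least 1 count in place of the TPM thresholds, where the values of all members rose, EIF4EBP2 was no longer called (-0.08, edgeR adjusted p = 0.207). The order of the pair was reversed between nascent and steady-state RNA in every library. The counted transcripts are also unlike in length, with 827 exon bases for EIF4EBP1 and 7491 for EIF4EBP2. EIF4EBP3 had 2 RNA-seq counts, both in replicate 2, and none in PRO-seq, and 73.2% of its exon bases lie in exons of ANKHD1-EIF4EBP3 on the same strand.

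EIF4ENIF1, the carrier of eIF4E into the nucleus, also known as 4E-T of P-bodies, had 12.2, 14.3, 12.0 and 15.7 TPM in RNA-seq and 57.1 and 58.9 TPM in PRO-seq. All RNA-seq values were well under both PRO-seq values. Its log2 half-life of -1.46 (SE 0.0795, edgeR adjusted p = 8.33e-17) was the second lowest of the family. Counted transcripts on the other strand overlap 100% of its span, and their part in its PRO-seq counts was not tested.

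Of the genes of subunit joining and eIF5A, 4 of the 5 fitted were above the median mRNA. EIF5, which makes eIF2 hydrolyse its GTP, lay at 0.17, EIF5B, which joins the subunits, at 0.60, and EIF6, which keeps free 60S subunits from joining, at 1.65 with over 2-fold called. EIF6 was counted over a transcript annotated as a target of nonsense-mediated decay, with 30.5% of its exon bases in exons of another counted transcript on the same strand. EIF5A, whose product carries hypusine and helps elongation and termination, had 538, 534, 521 and 536 TPM in RNA-seq and 237 and 264 TPM in PRO-seq, at 1.72 (SE 0.060, edgeR adjusted p = 9.15e-22). EIF5A2 had 10.4, 10.8, 11.3 and 10.2 TPM in RNA-seq and 25.2 and 19.9 TPM in PRO-seq, at -0.44 (SE 0.121, edgeR adjusted p = 0.00123). The call of EIF5A2 was lost without PRO-seq replicate 1 (-0.25, edgeR adjusted p = 0.139). EIF5AL1, a copy of EIF5A, held 39, 54, 31 and 56 RNA-seq counts (2.57, 3.37, 3.04 and 4.78 TPM) and 0 and 1 PRO-seq counts, and 43.9% of its windows and 26.5% of those of EIF5A had a second place.

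Sequence shared with other places, the transcript chosen for counting and overlapping genes put 13 of the 47 fitted genes in doubt. These are genes with at least 10% of windows at a second place, under 80% of the canonical exons counted, or at least 10% of exon bases in exons of another counted transcript on the same strand. They are EIF1AX, EIF2D, EIF2S2, EIF2S3, EIF3C, EIF3H, EIF3L, EIF4B, EIF4E, EIF4E2, EIF4H, EIF5A and EIF6, of which EIF3L shared 48.5% of its exon bases in this way. Of the 34 others, 22 were above the median mRNA and 9 below (14 and 3 by over 2-fold), with a median of 0.64, and of the 13 in doubt 11 were above and 1 below, with a median of 1.05. Without the doubtful genes the share above was 64.7%, against 70.2% with them and 45.4% of mRNAs. On the other strand, counted transcripts overlap 100% of the span of EIF2A, EIF3C and EIF4ENIF1, 81.5% of that of EIF4B and 68.4% of that of EIF2D. They also overlap 45.5% of the span of EIF2B4, 33.9% of that of EIF2B2 and 25.6% of that of EIF2AK3. Overlap on the other strand did not enter the rule for doubt. EIF2A, EIF2AK3, EIF2B2, EIF2B4 and EIF4ENIF1 are thus among the 34 others, and EIF2B2 and EIF4ENIF1 are called over 2-fold below. The 31 genes counted over their canonical transcript gave 22 above and 7 below.

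**Figure D3:**
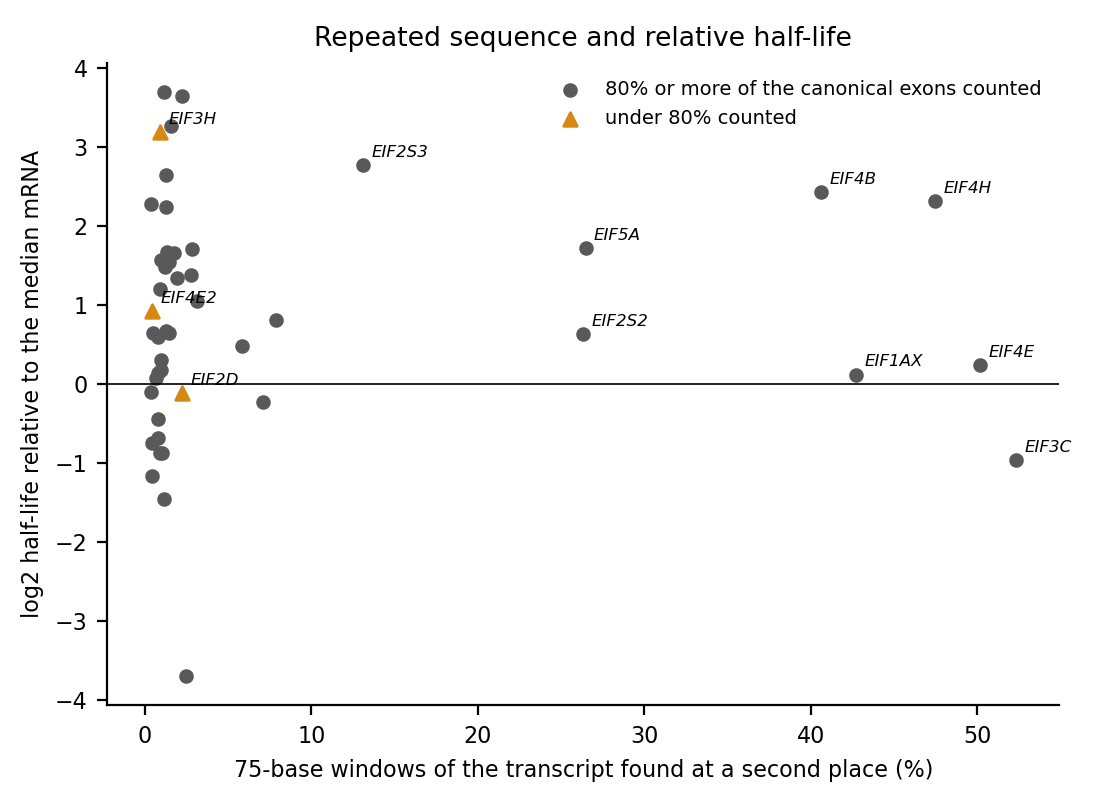
Log2 half-life relative to the median mRNA (vertical axis) against the percentage of 75-base windows of the counted transcript that occur at a second place in the genome (horizontal axis), with orange triangles for genes whose counted transcript covers under 80% of the canonical exons. The 8 genes with 10% or more of their windows at a second place run from EIF3C at -0.96 to EIF2S3 at 2.77, and the 4 longest-lived genes are all under 10%.

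Pseudogenes of initiation factors took few counts. Among 32 counted, 23 had RNA-seq counts and 8 had PRO-seq counts, summing to 2164 and 72, which is 0.483% and 0.0841% of the members' own counts. The most RNA-seq counts were held by EIF3FP3 (457), EIF4BP6 (379), EIF4BP7 (369) and EIF4A1P7 (361).

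Other genes of the pathway, from a list of 25 that carry other symbols, were set beside the family. Of the 22 fitted, 12 were above the median mRNA (54.5%), 7 below (31.8%) and 3 not called, with a median of 0.55. Over all mRNAs fitted, 45.4% were above and 44.9% below. By over 2-fold, 27.3% of the list were above and 9.09% below, against 24.3% and 23.2% of mRNAs. Over 2-fold above were BZW2 (2.67), a regulator that resembles eIF5, PAIP2 (2.52), an inhibitor of poly(A)-binding protein, ABCE1 (1.81), the ribosome recycling factor, DDX3X (1.77), a helicase, DENR (1.62), which releases tRNA in recycling, and NCBP1 (1.14), of the nuclear cap-binding complex. Over 2-fold below were ATF4 (-1.77), the transcription factor whose translation rises when eIF2 is phosphorylated, and PPP1R15A (-1.34), which directs the phosphatase to eIF2. CTIF, DHPS and IMPACT did not pass the thresholds.

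Of the 76 cytosolic ribosomal protein genes, 75 were fitted, 62 of them above the median mRNA (82.7%) and 9 below (12.0%), with a median log2 half-life of 2.41. Among 15 EEF genes, which encode elongation factors and related proteins, 8 were fitted, 5 above (62.5%) and 3 below (37.5%), with a median of 1.61. Of all mRNAs fitted, 45.4% were above and 44.9% below. The initiation factor genes had a lower median (0.67) than both, and these differences between lists were not tested.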

How the data were processed

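Each deposited table holds 1 library as raw read counts per transcript, made by the authors with HTSeq and not normalized. Their notes name cutadapt, HISAT2 and GRCh38, and no source used here gives versions or how strand was handled. Per the labels, the longest transcript was counted and 500 bp were left out for PRO-seq, although EIF2D, EIF3E and EIF3H were counted over 750, 715 and 2041 exon bases where their canonical transcripts have 2011, 2022 and 3961. The transcript chosen and the length removed set each TPM. Rows that name no transcript (66.5% to 68.6% of RNA-seq and 86.5% or 88.6% of PRO-seq records) were left out, as were unmatched transcripts (3.64% to 3.69% and 2.80% or 2.81% of counts).

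Of 42371 transcripts, 37339 were joined by identifier to GENCODE on GRCh37, which gave lengths and classes. Start windows and gene coordinates are RefSeq's on GRCh38.p14. RNA-seq TPM used exon length and PRO-seq TPM the span minus 1000 bp, since the methods leave out 500 bp at both ends. edgeR 4.0.16 (R 4.3.3; quasi-likelihood test, TMM, length offsets, Benjamini-Hochberg over 10053 transcripts) compared RNA-seq with PRO-seq, centred on the median mRNA, and its 2-fold test used a threshold of 2. DESeq2 1.42.0 was an alternative. On simulated counts for RNA-seq against PRO-seq, 100% of 200 transcripts changed by 1 on the log2 scale among 10013 were recovered, with 11 false calls. The simulation gave all transcripts the same spread between libraries and the others no difference in half-life, and transcripts entered at 1 count. The real data differ in each of these, so the figures are not error rates of the calls above.

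Members, lists and tests were chosen with earlier results of these data known. Values per library are given for the 5 highest and 5 lowest half-lives, the 3 highest RNA-seq levels and families of close copies. Alternatives were other normalizations, centres, lengths, thresholds, libraries left out, summed libraries and a replicate block. The alternative without genes in doubt was added after seeing the data.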

Additional observations from a re-analysis of the deposited data

Results flagged for a closer look

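Among 50 members with a mean RNA-seq level over the libraries of at least 1 TPM, 2 had an RNA-seq library whose gap to the others was large for the range of the 4 libraries by Dixon's test, and chance gives about 1 in 20 such groups. EIF2S1 was at 246.074 TPM in RNA-seq replicate 1, with the other libraries between 239.487 and 239.73 TPM. EIF5 was at 199.846 TPM in RNA-seq replicate 4, with the others between 204.736 and 205.229 TPM.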

How the results depend on the processing

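The 33 and 10 initiation factor genes above and below the median mRNA became 20 and 3 when over 2-fold was tested (2141 and 2996 of all transcripts). With at least 1 count in place of the TPM thresholds, 6671 and 7881 transcripts were called and the members' median rose from 0.67 to 1.33. Centred on all transcripts, whose median was -0.24, it was 0.91. As shares of counts in place of TPM, the members held 1.56% of RNA-seq and 0.619% of PRO-seq. Without 1 library at a time, 31 to 33 members were above and 9 to 11 below, their median was 0.65 to 0.74 (0.74 without PRO-seq replicate 2), their shares were 1.350% to 1.354% of RNA-seq and 0.852% to 0.860% of PRO-seq TPM, and 3879 to 4014 transcripts were above and 4890 to 5052 below. Signs turned at 1 count for EIF1AD (0.56), EIF5A2 (0.22), EIF2D (0.55) and EIF3F (0.44), centred on all transcripts for EIF1AD (0.15), EIF2D (0.13) and EIF3F (0.019), and with 500 bp removed for EIF1AD (0.000628). Calls above the zero point were gained at 1 count by EIF1B (0.80), EIF2AK1 (0.74), EIF1AD and EIF2D, and EIF3F went from called below to called above. Centred on all transcripts, calls were gained by EIF1B (0.38) and EIF2AK1 (0.32), and with 500 bp removed by EIF1B (0.45). Calls were lost at 1 count by EIF2AK3 (-0.02), EIF4EBP2 (-0.08) and EIF5A2. They were also lost centred on all transcripts by EIF5A2 (-0.20) and EIF3F, and with 500 bp removed by EIF1AX (0.11). At 1 count and when centred on all transcripts, the zero point is the median of another set of transcripts, and the values of all members rose. EIF1 went from -3.70 to -3.04 and -3.46, and EIF3K from 3.70 to 4.36 and 3.94. Turned signs and changed calls in these settings include this move of the zero point. Causes beyond it were not tested. RNA-seq and PRO-seq replicates share only a number (their differences between replicates 1 and 2 correlated at r = 0.0223 over 10053 transcripts). With the replicate block, 32 members were above and 10 below (3925 and 4963 transcripts, members' median 0.66), and EIF1AX alone changed its call (edgeR adjusted p = 0.142). DESeq2, and edgeR on RNA-seq replicates 1 and 3 summed and 2 and 4 summed, also gave 32 and 10. With library totals or DESeq2's size factors in edgeR, all 47 genes kept their calls.

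Depth limits the genes with few counts, such as EIF4E1B and EIF4EBP3, and lengths from GRCh37 can differ from those the counts were made on.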
